A study of Mus musculus with 12 samples.

Results

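The 42 genes described here, called members below, encode enzymes that break down amino acids. They were taken by symbol from the table of 12086 genes measured in mouse liver, with Mut standing for the methylmalonyl-CoA mutase gene that is also called Mmut, and 42 of 42 were measured. They were sorted by substrate into 9 branches: phenylalanine and tyrosine (5 genes), tryptophan (4), histidine (4), serine and glycine (6), alanine and aspartate transaminases (4), glutamate, glutamine, proline and ornithine (5), branched-chain amino acids and propionate (12), lysine (1) and phosphoethanolamine (1). RNA sequencing was done on livers of wild type male C57BL/6 mice killed in a fasted state at postnatal day 84 (12 weeks). Dams ate a standard chow, RM1, with 7% simple carbohydrate and 3% lipid, or an obesogenic diet with 10% simple carbohydrate and 20% lipid plus sweetened condensed milk (55% simple carbohydrate, 8% lipid, 8% protein). Litters were reduced to 6 pups on day 3, and from day 21 the male offspring ate either RM1 or the obesogenic diet. CC offspring had control dams and ate RM1 (3 libraries), and CO offspring had control dams and ate the obesogenic diet (2 libraries). OC offspring had obesogenic dams and ate RM1 (3 libraries), and OO offspring had obesogenic dams and ate the obesogenic diet (3 libraries). The sources used here do not say which mice were littermates, so p-values measure the spread between these libraries.

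As background, the liver is the main organ that breaks down surplus amino acids. Transaminases and deaminases take off the nitrogen, which leaves as urea, and the carbon skeletons feed glucose synthesis or the citric acid cycle. Each essential amino acid has its own chain of enzymes, and the enzyme at the head of a chain, such as Tat for tyrosine, Tdo2 for tryptophan or Hal for histidine, is known to rise and fall with dietary protein, glucagon and glucocorticoids. Branched-chain amino acids differ in that they lose their amino group mostly outside the liver, and the liver takes over at the later oxidative steps. Periportal hepatocytes, those near the incoming portal blood, are known to carry much of amino acid breakdown and urea synthesis.

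Libraries are named by group and a number that pairs nothing. Depth, recovered from the values, ran from 3976158 reads in OO.1 to 27837609 in OO.0, with the other libraries at 4575514 to 7969056. The member with the fewest reads in any library, Sdsl, had 22 there. Values are gene counts divided by 1 factor per library, close to CPM, and differences are on the log2(value + 0.5) scale. The 7 hepatocyte markers measured summed to between 56843 and 72810 in every library, and 0 of them were at 0 in a library. Other transcripts set some libraries apart. Acute phase genes (18 measured) averaged 3.29 above the CC mean on the log2 scale in CO.1, 2.36 in OC.1 and 1.19 in CO.0, against -0.16 to 1.05 in the other OC and OO libraries. Exocrine pancreas genes (12 measured) summed to 4041 in CO.1, 6372 in OC.0 and 945 in CC.1, with a lowest sum of 7.46 in CC and 15.8 in OO. Because livers were sequenced whole, fewer cells of a type and less RNA per cell cannot be told apart.

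In offspring of control dams, the obesogenic diet went with lower transcript levels of 7 of the 42 enzymes, and 0 were higher at an adjusted p under 0.05. The 7 were Etnppl, Hal, Got1, Sds, Tdo2, Gldc and Amdhd1. The falls ran from -3.39 for Etnppl to -0.84 for Amdhd1 on the log2 scale. Over all 12086 genes, limma's moderated test with Benjamini-Hochberg adjustment called 0.778% lower, 1.01% higher and 1.79% in either direction. The estimate was below 0 for 35 of 42 members, against 50.8% of all genes, and the median was -0.32, against -0.01 for all genes. Every CO library lay below every CC library for 18 members (17.9% of all genes), and above for 1, Kmo (17% of all genes). Calls over all genes dropped from 216 to 23 without CC.0 and 19 without CC.2, and to 169 without OC.0 and 124 without OC.2. The member count depended on single libraries too. It was 0 without CC.0, 1 without CC.2 or without CO.1 (Etnppl each time), 4 without OC.0 or without OC.2, and 5 to 8 without any other library. On recovered reads, edgeR's quasi-likelihood test and limma's voom called 4 (Etnppl, Hal, Tdo2 and Amdhd1), and DESeq2 called 10. Over all genes edgeR called 156, voom 104 and DESeq2 456.

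In offspring of obesogenic dams, 0 of the 42 members passed limma's threshold between OO and OC, and edgeR, DESeq2 and voom also called 0. At an unadjusted p under 0.05 there were 7 members (8.01% of all genes), and in all 20 genes passed (0.165%, with 0.091% lower and 0.0745% higher). The members with the smallest p were Sdsl, at -0.95 (SE 0.25), Etnppl, at -1.64 (SE 0.45), and Got1, at -1.07 (SE 0.30). Their limma adjusted p-values were 0.3, 0.3 and 0.314. Every OO library lay below every OC library for 5 members, Sdsl, Gldc, Got1, Gls2 and Etnppl (6.14% of all genes), and above for 0 (6.6% of all genes). The median was -0.0031, and 22 of 42 estimates were below 0. Etnppl passed in this comparison without CO.0, without CO.1 and without either pair of libraries that held CO.1, all fits with a lone CO library. Its estimate ran from -1.84 to -1.27 over the alternatives.

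Averaged over both maternal diets, 10 members were lower on the obesogenic offspring diet and 0 higher: the same 7 as in CO, plus Tat, Sdsl and Gls2. Limma called 1.72% of all genes lower, 2.24% higher and 3.96% in either direction for this average. The estimate was below 0 for 35 of 42 members (50.2% of all genes), 15 had an unadjusted p under 0.05 (19.4% of all genes), and the median member was at -0.19. Of the 10, 6 remained when any of CC.0, CC.2, CO.1 or OC.0 was left out (Etnppl, Got1, Hal, Sds, Sdsl and Tat), and 8 to 10 were called without any other library. Leaving out OC.0 and CO.1, which held the highest pancreas levels, left 1 (Etnppl), and leaving out OC.1 and CO.1, highest for acute phase genes, left 3 (Etnppl, Sds and Sdsl). Calls over all genes dropped too, from 479 to 134 and 250. The estimates of all 10 stayed below 0 with either pair left out: Tat was at -1.299 and -1.26, Sds at -1.19 and -1.18, and Got1 at -1.19 and -1.15. Gldc moved from -0.66 to -0.42 and Gls2 from -0.91 to -0.57 without OC.0 and CO.1. EdgeR, DESeq2 and voom each called the same 10, and over all genes they called 504, 770 and 470.

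**Figure D1:**
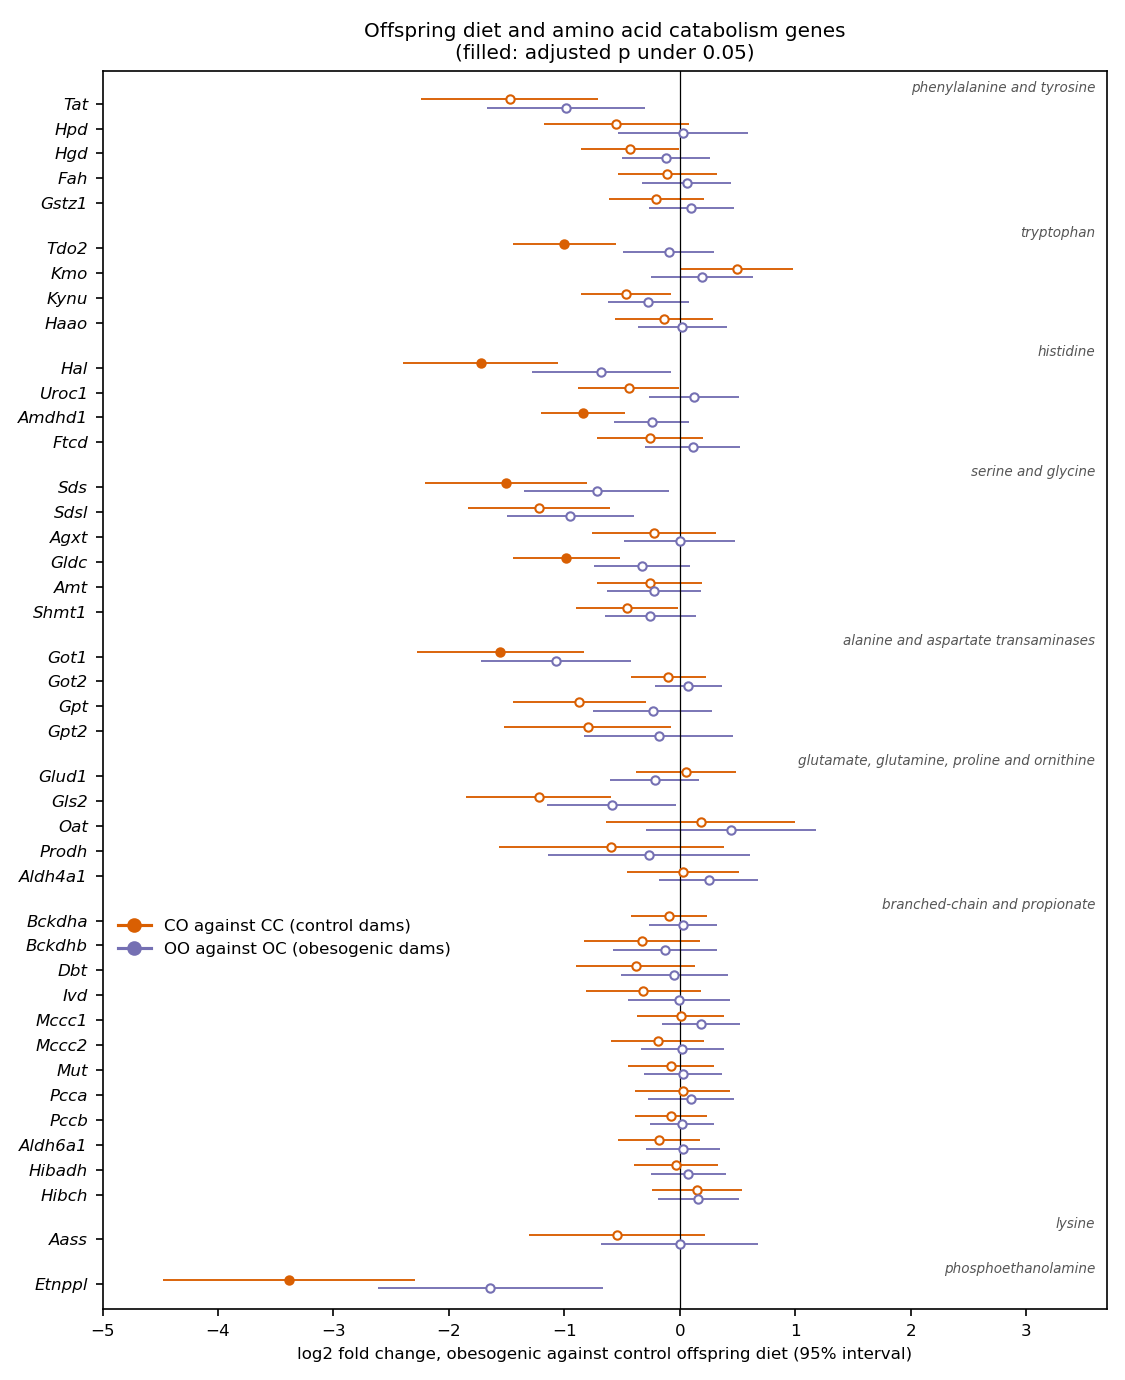
Log2 fold change of each of the 42 enzymes for the obesogenic against the control offspring diet, by branch, in offspring of control dams (orange, CO against CC) and of obesogenic dams (purple, OO against OC), with 95% intervals from limma. The 7 filled points, all orange and all left of 0, passed an adjusted p under 0.05, and the 12 branched-chain members lie between -0.38 and 0.18.

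Promoters are shown for the 4 members with the largest falls among those called in CO against CC and found in the promoter table, to show the start regions of genes that fell together. Of the 42 members, 35 had an entry in RefSeq promoters on GRCm38.p6, each running from 250 bases before to 50 after the start. Gpt, Dbt, Gls2, Mut, Kynu, Sdsl and Sds had no entry under these symbols, and the name Mmut was not searched. Capitals mark each match, on either strand, to TATAAA, the core of a TATA box, or to CCAAT. Matches on the other strand read as TTTATA or ATTGG. Etnppl lies on the plus strand (chr3:130617198-130617497, the first of 2 entries), Hal on plus (chr10:93488518-93488817), Got1 on minus (chr19:43524556-43524855) and Tdo2 on minus (chr3:81975679-81975978).
Etnppl: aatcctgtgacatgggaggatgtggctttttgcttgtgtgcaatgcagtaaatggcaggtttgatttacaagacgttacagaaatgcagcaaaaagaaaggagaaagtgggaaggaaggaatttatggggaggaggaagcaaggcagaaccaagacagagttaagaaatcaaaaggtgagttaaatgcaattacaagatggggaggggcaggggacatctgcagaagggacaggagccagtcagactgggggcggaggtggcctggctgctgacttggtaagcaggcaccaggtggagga
Hal: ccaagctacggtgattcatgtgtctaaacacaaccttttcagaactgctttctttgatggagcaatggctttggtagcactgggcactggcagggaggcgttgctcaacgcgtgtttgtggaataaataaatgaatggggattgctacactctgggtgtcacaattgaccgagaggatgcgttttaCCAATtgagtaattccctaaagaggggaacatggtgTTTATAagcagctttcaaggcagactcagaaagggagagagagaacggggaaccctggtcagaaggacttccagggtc
Got1: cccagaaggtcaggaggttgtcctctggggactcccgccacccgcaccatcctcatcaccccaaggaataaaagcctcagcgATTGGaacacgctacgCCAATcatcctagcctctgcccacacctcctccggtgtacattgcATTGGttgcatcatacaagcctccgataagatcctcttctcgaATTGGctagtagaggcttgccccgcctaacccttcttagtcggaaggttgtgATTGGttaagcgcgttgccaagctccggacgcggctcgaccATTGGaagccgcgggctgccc
Tdo2: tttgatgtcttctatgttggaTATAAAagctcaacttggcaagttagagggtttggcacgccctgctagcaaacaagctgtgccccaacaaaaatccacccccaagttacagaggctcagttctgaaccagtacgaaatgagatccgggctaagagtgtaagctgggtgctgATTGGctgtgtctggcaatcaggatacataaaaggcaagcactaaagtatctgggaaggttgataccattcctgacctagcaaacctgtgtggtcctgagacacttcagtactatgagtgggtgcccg
Among the 4 windows, Etnppl, the member that fell most, held neither motif, and Got1 held 6 CCAAT matches. Hal and Tdo2 each held 1 TATAAA and 1 CCAAT match. Counted from the start, the TATAAA match began at base -28 in Hal and at base -229 in Tdo2. TATAAA was found for 5 of the 35 members with an entry (14.3%), and in 13.6% of 32851 promoters in the table. A member was counted if any of its entries matched, while the table share counts single entries, from 27025 genes. A member with more than 1 entry had more chances to match, so the member and table shares are not like measures. CCAAT was found for 20 of 35 members (57.1%), and in 37.4% of all entries. Of the 10 members called for the average, 7 had an entry, and 5 of these had a CCAAT match (Gldc, Got1, Hal, Tat and Tdo2). The full cyclic AMP response element TGACGTCA was in 0 of 35 (1.79% of all), its core TGACG in 6 of 35 (17.1%, against 20.8%), and TTGCNNAA, a C/EBP-like sequence, in 3 of 35 (8.57%, against 10.8%). Both strands were searched, and every TGACGTCA match also holds a TGACG match. A match here is a description of the letters and not a binding site.

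**Figure D2:**
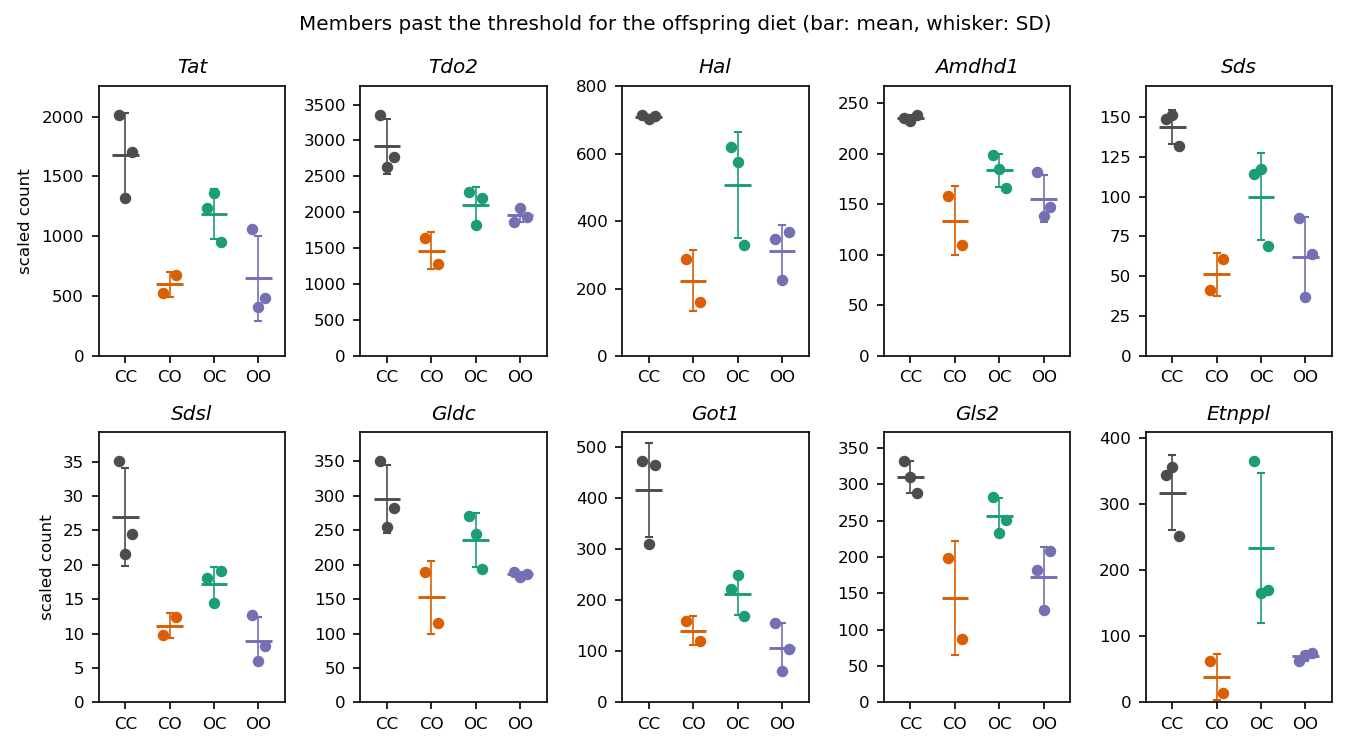
Scaled counts of the 10 members past the threshold for the average offspring diet difference, with 1 point per library, a bar at the group mean and whiskers of 1 SD. CO points lie below all CC points in every panel, while OO overlaps OC for Tat, Tdo2, Hal, Amdhd1 and Sds.

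Etnppl (ENSMUSG00000019232) showed the largest fall of all 42 members. It encodes the enzyme that splits phosphoethanolamine, a breakdown product of membrane lipids, and is related to the transaminases. Values were 345, 356 and 252 in the CC libraries and 63.0 and 13.8 in CO. They were 365, 166 and 171 in OC and 62.1, 71.9 and 75.0 in OO. All 5 libraries of the obesogenic offspring diet lay below all 6 of the control diet, with OC.0 as high as CC and CO.1 lowest. Group means were 318 ± 57.0 (SD, n = 3) in CC and 38.4 ± 34.8 (SD, n = 2) in CO, a difference of -3.39 (SE 0.50) on the log2 scale, or 10.5-fold lower (limma adjusted p 0.0149). For the average over maternal diets it fell by 2.51 on the log2 scale (SE 0.33, limma adjusted p 0.0027), and this call held under every alternative tried (adjusted p 2.41e-07 to 0.00959). The call in CO against CC was lost without CC.0 and without OC.1 and CO.1 together. The size of that difference depended on the CO library, at -2.31 without CO.1 and -4.46 without CO.0.

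Of the phenylalanine and tyrosine branch, Tat changed and the other 4 did not pass. Tat (ENSMUSG00000001670) encodes tyrosine aminotransferase, the enzyme at the head of tyrosine breakdown. Its values were 2013, 1316 and 1706 in CC, 525 and 673 in CO, 1236, 1363 and 954 in OC and 1058, 406 and 485 in OO. CO lay below all CC libraries, and OO.1 and OO.2 lay below all OC libraries while OO.0 lay among them. Tat was at -1.47 (SE 0.35) in CO against CC, just short of the threshold (limma adjusted p 0.0602), and fell by 1.23 on the log2 scale (SE 0.23, limma adjusted p 0.0149) on average over maternal diets. That average call held without any single library and was lost without either pair that held CO.1.

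The enzymes after Tat on the same route, Hpd, Hgd, Gstz1 and Fah, differed less than Tat in CO against CC and in OO against OC. In OC against CC the 5 members of the branch lay between -0.51 and -0.16, so OO against OC does not give the distance from CC. Hgd, homogentisate dioxygenase, had 659.7, 655 and 709 in CC, 578 and 431 in CO, 523, 531 and 572 in OC and 618, 385 and 520.3 in OO. CC was higher than every other library for Hgd, and no call followed (-0.43, SE 0.19 in CO against CC, limma adjusted p 0.287). Hpd, which makes homogentisate, stood at -0.55 (SE 0.29) in CO against CC and 0.03 in OO against OC. Gstz1, the maleylacetoacetate isomerase, stood at -0.20 and 0.10, and Fah, which ends the route, at -0.11 and 0.06.

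Tryptophan breakdown showed a fall at its head and a member that leaned the other way. Tdo2 (ENSMUSG00000028011), tryptophan 2,3-dioxygenase, opens the ring and commits tryptophan to the kynurenine route. It had 3356, 2631 and 2771 in CC, 1647 and 1280.3 in CO, 2276, 1822 and 2206 in OC and 1871, 2063 and 1934 in OO. CC was highest and CO lowest, with OC and OO between and overlapping. The mean was 2919 ± 385 (SD, n = 3) in CC against 1464 ± 259.5 (SD, n = 2) in CO, and Tdo2 fell by 0.999 on the log2 scale (SE 0.20, limma adjusted p 0.0385). OO against OC gave -0.10 with a 95% interval of -0.50 to 0.30. The average call (limma adjusted p 0.0477) was lost under 12 alternatives, among them the loss of any single library other than CO.0 and OC.1.

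Further along that route, Kynu, kynureninase, had 231, 224 and 213 in CC, 188 and 137 in CO, 232, 175 and 172 in OC and 184, 140.5 and 153 in OO. CO lay below CC for Kynu, but the average of -0.37 (SE 0.12) did not pass (limma adjusted p 0.11). Kmo, kynurenine 3-monooxygenase, had 300.2, 355 and 359.6 in CC and 508 and 444 in CO, so that CO lay above CC, at 0.49 (SE 0.22, limma adjusted p 0.294). OC and OO overlapped for Kmo, at 264, 430.2 and 314 and 400.4, 289 and 457. Kmo overlaps the gene Fh1 on the opposite strand. Since the strand setting is not given, reads in the shared stretch, whose length was not measured, cannot be assigned to either gene. Haao, which forms the precursor of quinolinate, was at -0.14 in CO against CC and 0.02 in OO against OC.

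In the histidine branch the 2 neighbouring genes Hal and Amdhd1 fell and the other 2 did not pass. Hal (ENSMUSG00000020017) encodes histidine ammonia-lyase, which takes the amino group off histidine. Its values were 716, 703 and 711 in CC, 288 and 159.6 in CO, 620.4, 575 and 329 in OC and 346, 224 and 367 in OO. The CC libraries lay within a narrow range, CO was far below them, and OC.2 was as low as the OO libraries. Hal fell by 1.73 on the log2 scale (SE 0.31, 3.31-fold, limma adjusted p 0.0238) in CO against CC and fell by 1.204 on the log2 scale (SE 0.21, limma adjusted p 0.0102) on average. In OO against OC the difference was -0.68 (SE 0.28), which did not pass (limma adjusted p 0.553).

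Amdhd1 (ENSMUSG00000015890), imidazolonepropionase, acts at the histidine step that follows Uroc1. Its values were 235, 232 and 238 in CC, 158 and 109 in CO, 199, 185 and 166 in OC and 182, 138 and 147 in OO. All CO, OC and OO libraries lay below CC, and OC overlapped OO. Amdhd1 fell by 0.84 on the log2 scale (SE 0.17, limma adjusted p 0.035) in CO against CC. Hal and Amdhd1 lie next to each other on chromosome 10 in the GENCODE M21 annotation. Uroc1, urocanase, was at -0.44 in CO against CC and 0.12 in OO against OC, and Ftcd, which passes the last carbon of histidine to folate, at -0.26 and 0.11. The average call of Amdhd1 was lost without CC.0, CC.2, CO.1, OC.0 or either pair that held CO.1. Its average estimate ran from -0.67 to -0.38 over the alternatives.

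Serine and glycine enzymes held 3 of the 10 average calls. Sds (ENSMUSG00000029597), serine dehydratase, turns serine into pyruvate. It had 149, 151 and 132 in CC, 41.7 and 60.7 in CO, 114, 117 and 68.8 in OC and 86.5, 36.8 and 63.9 in OO. CO lay far below CC, and OC.2 was lower than the other OC libraries and within the OO range. Sds fell by 1.50 on the log2 scale (SE 0.32, 2.84-fold, limma adjusted p 0.0438) in CO against CC and fell by 1.11 on the log2 scale (SE 0.21, limma adjusted p 0.0155) on average. That average call was lost without CO.0 and without OC.0 and CO.1 together. The average estimate of Sds ran from -1.25 to -0.95 over the alternatives. Plbd2 overlaps Sds on the opposite strand, so reads in the shared stretch, whose length was not measured, cannot be assigned without the strand setting. Such overlaps also hold for other members, among them Hpd with Psmd9 and Shmt1 with Smcr8.

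Sdsl (ENSMUSG00000029596), a serine dehydratase-like enzyme encoded next to Sds on chromosome 5, was among the least read members. Its values were 35.0, 21.5 and 24.5 in CC, 9.83 and 12.4 in CO, 18.1, 14.4 and 19.1 in OC and 12.7, 6.08 and 8.17 in OO. All 5 libraries of the obesogenic offspring diet were below all 6 of the control diet. Sdsl was at -1.22 (SE 0.28) in CO against CC (limma adjusted p 0.054) and fell by 1.08 on the log2 scale (SE 0.19, limma adjusted p 0.0109) on average, a call lost only without OC.0 and CO.1 together among the alternatives tried.

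Gldc (ENSMUSG00000024827) encodes the decarboxylase of the glycine cleavage system. It had 349.8, 254 and 282 in CC, 189.7 and 115 in CO, 271, 244 and 193 in OC and 189, 183 and 186 in OO. OO was tightly grouped just below the lowest OC library, and CO.1 was lowest. Gldc fell by 0.98 on the log2 scale (SE 0.21, limma adjusted p 0.0441) in CO against CC, a call that 13 of the 23 alternatives lost (adjusted p 0.00324 to 0.268). Amt, the aminomethyltransferase of the same system, was at -0.26 in CO against CC and -0.22 in OO against OC, and neither passed. Shmt1, which interconverts serine and glycine in the cytosol, was at -0.45 and -0.25, and Agxt, which turns glyoxylate into glycine, at -0.22 and 0.00.

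Among the alanine and aspartate transaminases, the cytosolic aspartate enzyme fell and its mitochondrial counterpart did not pass. Got1 (ENSMUSG00000025190) had 472, 310.2 and 465 in CC, 160.2 and 119.8 in CO, 221, 249.7 and 168 in OC and 156, 61.1 and 104 in OO. All CO, OC and OO libraries lay below CC, and all OO libraries lay below OC. Got1 fell by 1.56 on the log2 scale (SE 0.33, 2.94-fold, limma adjusted p 0.0438) in CO against CC and fell by 1.31 on the log2 scale (SE 0.22, limma adjusted p 0.00929) on average. The average call held without any single library and was lost without either pair that held CO.1. Got2, the mitochondrial enzyme, was at -0.10 (SE 0.15) in CO against CC and 0.07 (SE 0.13) in OO against OC, with 95% intervals of -0.42 to 0.23 and -0.22 to 0.36.

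Gpt, the alanine transaminase of the cytosol, had 317, 263 and 337 in CC, 198 and 139 in CO, 202, 267 and 208 in OC and 180.1, 137 and 279 in OO. CO lay below CC, and OO spanned the OC range and beyond at either end. Gpt was at -0.87 (SE 0.26) in CO against CC and -0.55 (SE 0.18) on average, with limma adjusted p-values of 0.119 and 0.109. Gpt2, the mitochondrial alanine enzyme, had 1141, 599 and 995 in CC and 455 and 563 in CO. For Gpt2, CC.1 was near the CO values while the other CC libraries were well above them, and the difference of -0.80 (SE 0.33) did not pass (limma adjusted p 0.251).

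In the glutamate, glutamine, proline and ornithine branch, Gls2 was the member called. Gls2 (ENSMUSG00000044005), liver-type glutaminase, releases ammonia from glutamine for urea synthesis in periportal cells. It had 331, 309.7 and 288 in CC, 199 and 87.8 in CO, 283, 233 and 251 in OC and 183, 127 and 208 in OO. All 5 libraries of the obesogenic diet were below all 6 of the control diet, and CO.1 was lowest. It was at -1.22 (SE 0.29) in CO against CC (limma adjusted p 0.0581) and fell by 0.91 on the log2 scale (SE 0.19, limma adjusted p 0.0252) on average. That call was lost without CC.0, CC.2, CO.1, OC.0, OC.2 or either pair that held CO.1. The average estimate of Gls2 ran from -1.20 to -0.57 over the alternatives, and Spryd4 overlaps Gls2 on the opposite strand.

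The rest of that branch did not move with the offspring diet past the threshold. Glud1, glutamate dehydrogenase, was at 0.05 (SE 0.20) in CO against CC and -0.22 (SE 0.18) in OO against OC. Prodh, proline dehydrogenase, varied within groups, with 196, 103 and 144 in CC, 119.5 and 74.7 in CO, 126, 178 and 94.98 in OC and 77.9, 71.3 and 219.8 in OO. All 4 groups overlapped for Prodh, OO.2 was the highest library, and the average was -0.43 (SE 0.30) with a limma adjusted p of 0.479. Oat, ornithine aminotransferase, was likewise highest in OO.2, with 1546, 745 and 2396 in OO against 937, 969.9 and 1211 in OC (0.44, SE 0.34, limma adjusted p 0.812). Aldh4a1, which follows Prodh, was at 0.03 in CO against CC and 0.25 in OO against OC.

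The branched-chain and propionate branch, the largest of the 9, had 0 of 12 members called by limma in any of the 7 comparisons. Its differences in CO against CC lay between -0.38 and 0.15 on the log2 scale, and the widest 95% bounds were -0.90 and 0.54. In OO against OC they lay between -0.13 and 0.18, with bounds of -0.58 and 0.52. Averaged over maternal diets they lay between -0.23 and 0.15, with bounds of -0.57 and 0.42. The members with the smallest p for the average were Bckdhb and Dbt, subunits of the dehydrogenase complex that commits branched-chain keto acids to oxidation. Bckdhb had 63.9, 57.4 and 67.0 in CC, 58.5 and 42.3 in CO, 54.5, 57.3 and 57.3 in OC and 47.8, 38.2 and 74.5 in OO. Dbt had 119, 94.99 and 115 in CC, 111 and 62.7 in CO, 87.4, 85.5 and 84.7 in OC and 85.7, 63.6 and 105 in OO. For both, CO.1 and OO.1 were the low libraries and CO.0 lay within the CC range. Bckdha, the remaining subunit listed, was at -0.09 (SE 0.15) and 0.03 (SE 0.13).

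The later enzymes of that branch lay within the branch ranges given above for CO against CC and OO against OC. In OC against CC the 12 members lay between -0.34 and 0.05. In leucine breakdown, Ivd was at -0.31 in CO against CC and -0.00 in OO against OC, Mccc1 at 0.01 and 0.18, and Mccc2 at -0.19 and 0.02. In valine breakdown, Hibch was at 0.15 and 0.16, Hibadh at -0.04 and 0.07, and Aldh6a1 at -0.18 and 0.03. The propionate enzymes, which carry the last carbons into the citric acid cycle, gave 0.02 and 0.10 for Pcca, -0.08 and 0.02 for Pccb, and -0.07 and 0.03 for Mut. None of these passed, with limma adjusted p-values of at least 0.444 in CO against CC and 0.837 in OO against OC over the 12 members.

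Aass, the lysine enzyme of the set, which opens lysine breakdown in mitochondria, spread more widely among the CC libraries than within the other groups. It had 1477, 532 and 932 in CC, 652 and 585 in CO, 482, 419.6 and 447 in OC and 568, 318 and 498 in OO. CC.0 was the highest library, CC.1 lay among the OO values, and all OC values lay below CC. The offspring diet average was -0.27 (SE 0.23), with a limma adjusted p of 0.574.

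Set side by side, the branches differed in how far their members lay from CC, as a description without a test of branch against branch. The median difference in CO against CC was -0.83 for the transaminases, -0.72 for serine and glycine, -0.64 for histidine, -0.43 for phenylalanine and tyrosine and -0.30 for tryptophan. It was -0.08 for the branched-chain members and 0.03 for the glutamate and proline group, where all genes had -0.01. The order was not the same in OO against OC. There the medians were -0.29 for serine and glycine, -0.22 for the glutamate group and -0.21 for the transaminases. They were -0.07 for histidine, -0.04 for tryptophan, 0.03 for phenylalanine and tyrosine and 0.03 for the branched-chain members. Members called lower for the average were 3 of 6 for serine and glycine and 2 of 4 for histidine. They were 1 of 4 each for tryptophan and the transaminases, and 1 of 5 each for phenylalanine and tyrosine and for the glutamate group. Limma called 1.72% of all genes lower for this average.

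**Figure D3:**
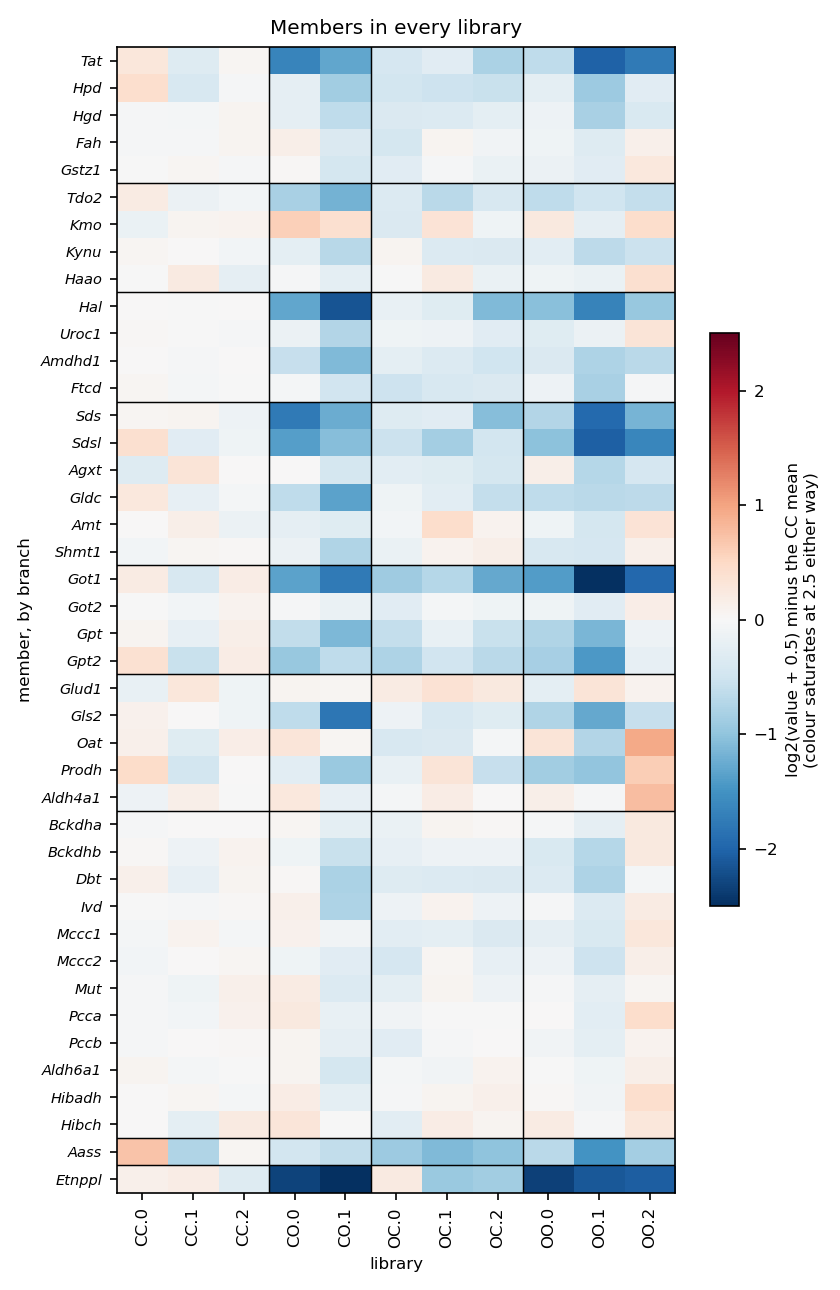
Log2(value + 0.5) of each of the 42 members in each of the 11 libraries, less the CC mean of that gene, with blue for lower, red for higher, colours that saturate at 2.5 either way and horizontal lines between branches. Blue rows such as Tat, Hal, Sds, Got1 and Etnppl recur across CO and OO, the 12 branched-chain rows are pale, and the OO.1 column has 38 of 42 members below every CC library.

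Library by library, the shift was uneven. The 10 called members were chosen for being lower in CO and OO in these same libraries. Low levels there, and the gap to the other 32, follow from that choice. The 10 averaged -1.24 and -1.74 against the CC mean in CO.0 and CO.1, and -0.95, -1.57 and -1.20 in OO.0 to OO.2. In OC they averaged -0.30, -0.50 and -0.74. The other 32 members averaged -0.03 in CO.0 and -0.42 in CO.1, and ran from -0.49 in OO.1 to 0.13 in OO.2. Of the 42 members, 18 lay below every CC library in CO.0 and 37 in CO.1. The counts were 31, 20 and 29 in OC.0 to OC.2, and 29, 38 and 14 in OO.0 to OO.2. Over all genes this share ran from 26% in OC.2 to 32.6% in CO.0. Above every CC library lay 13 members in CO.0 and 1 in CO.1. These counts were 2, 10 and 4 in OC.0 to OC.2, and 3, 1 and 21 in OO.0 to OO.2. Over all genes the share above ran from 25.5% in OC.2 to 33.4% in CO.1. CO.1 was the library with the highest acute phase level, and OO.1 the one with the fewest reads. The part of either in these levels was not tested.

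Genes around these enzymes were read from lists of 69 other amino acid pathway enzymes. In CO against CC 3 of the 69 were lower (0.778% of all genes) and 0 higher (1.01%) by limma. On average over maternal diets 5 were lower (1.72% of all genes) and 0 higher (2.24%). All but 1 of the 5 belong to sulphur amino acid breakdown, where 4 of 13 were called. Csad, the decarboxylase of taurine synthesis, had 324, 441 and 328 in CC, 104 and 97.1 in CO, 683, 598 and 722 in OC and 159.9, 383 and 141 in OO. OC lay above CC, CO lay below it and OO.1 lay within the CC range, and Csad fell by 1.77 on the log2 scale (SE 0.22, limma adjusted p 0.00218) on average. Cth, cystathionine gamma-lyase, fell by 1.31 on the log2 scale (SE 0.23, limma adjusted p 0.0111), with 1013, 637 and 781 in CC and 350.04 and 179 in CO. Cbs and Ethe1 of the same list, and Gnmt, which methylates glycine, passed as well, at -0.60, -0.61 and -0.97. The 13 other aromatic and 14 other branched-chain genes had 0 calls in CO against CC, OO against OC and the average.

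Of 6 urea cycle genes, 4 were lower on average (Asl, Arg1, Cps1 and Ass1, at -1.80, -1.16, -1.06 and -0.9997) and 0 higher. Over all genes limma called 1.72% lower and 2.24% higher for this average. Among 14 amino acid transporters, Slc6a13, a GABA and taurine carrier, was lower at -0.42 and Slc1a2, a glutamate carrier, higher at 0.45. Of 18 regulators, Cebpb, a transcription factor active in fasting and inflammation, was the 1 called, higher at 0.52 (SE 0.13, limma adjusted p 0.0433). Its values were 44.7, 32.4 and 36.1 in CC, 59.0 and 62.0 in CO, 31.5, 35.4 and 41.1 in OC and 58.7, 39.8 and 41.7 in OO. The remaining 17 regulators, among them Gcgr, Nr3c1, Klf15 and Ppargc1a, did not pass in that average.

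Periportal markers were mostly lower beside the members, while pericentral markers went both ways. Of 13 periportal genes that are not members, 6 were called lower for the offspring diet average (1.72% of all genes) and 0 higher (2.24%). Their median was -0.47. Among the 6 called were the 4 urea cycle genes just named. The mean level of the 13 against CC was -0.63 and -1.04 in CO, -0.28 to -0.47 in OC and -0.49 to -1.07 in OO. Of 13 pericentral genes, 1 was called lower and 1 higher, with a median of 0.05. Acute phase genes had 4 of 18 called higher (2.24% of all genes) and 0 lower (1.72%) for the average. Without OC.1 and CO.1, the libraries highest for acute phase genes, 3 of the 10 calls remained, while calls over all genes dropped from 479 to 250. The 10 estimates then ran from -2.07 for Etnppl to -0.41 for Amdhd1. The part of zone markers in the members' levels was not tested.

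**Figure D4:**
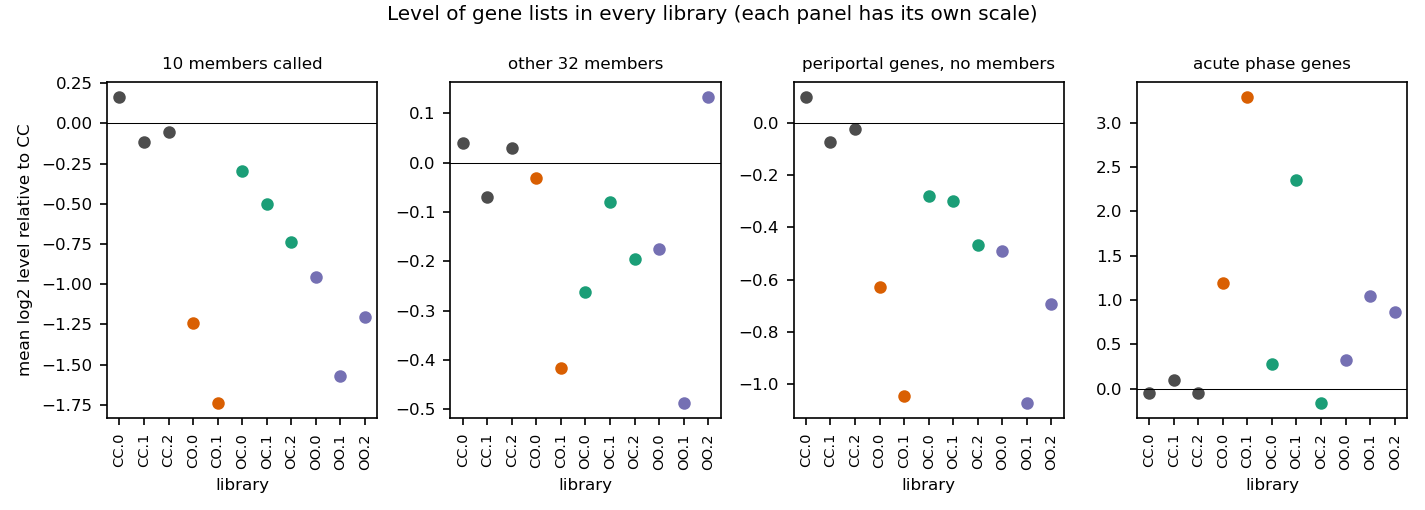
Mean log2 level against the CC mean in each library for the 10 called members, the other 32 members, 13 periportal genes that are not members and 18 acute phase genes, with 1 point per library coloured by group and a separate vertical scale in each panel. The called members, chosen for being lower in CO and OO in these same libraries, sit at -0.95 or lower in every CO and OO library. The acute phase panel is led by CO.1 at 3.29 and OC.1 at 2.36.

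The maternal diet alone gave no call among the 42. In OC against CC, limma, edgeR, DESeq2 and voom each called 0 members, and limma called 0% of all genes. At an unadjusted p under 0.05 there were 6 members (5.26% of all genes). The estimate was below 0 for 36 of 42 members (49.3% of all genes), with a median of -0.20, and every OC library lay below every CC library for 15 members (6.14% of all genes) and above for 0 (5.32%). OC against CC and CO against CC share the CC libraries. The smallest p belonged to Aass (-1.005, SE 0.31), Got1 (-0.96, SE 0.30) and Tdo2 (-0.47, SE 0.18), each with a limma adjusted p of 0.923. For Got1 the OC values of 221, 249.7 and 168 all lay below the CC values of 472, 310.2 and 465.

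In offspring on the obesogenic diet, OO against CO also gave 0 calls by limma, edgeR, DESeq2 and voom, and 1 member, Etnppl, at an unadjusted p under 0.05 (5.92% of all genes). Limma called 0.0414% of all genes, 0.0331% lower and 0.00827% higher. The estimate was below 0 for 14 of 42 members (48.4% of all genes), and 1 member, Aass, had every OO library below CO (9.48%) and 1, Tdo2, above (10.5%). Etnppl was at 1.22 (SE 0.50), Tdo2 at 0.43 (SE 0.20) and Uroc1 at 0.40 (SE 0.20), with limma adjusted p-values of 0.833, 0.833 and 0.843. The Etnppl value rested on CO.1, and without it the difference was 0.14. The median member was at 0.04. For the maternal diet averaged over offspring diets, 0 members passed by any of the 4 tools (0.0331% of all genes) and 3 had an unadjusted p under 0.05 (6.13% of all genes). The estimate was below 0 for 27 of 42 (49.2% of all genes). The 3 were Got1 (-0.71, SE 0.22), Aass (-0.73, SE 0.23) and Sdsl (-0.48, SE 0.19), each with a limma adjusted p of 0.789.

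Whether the offspring diet difference depended on the dam's diet was tested as the interaction, the OO against OC difference less the CO against CC difference. Limma, edgeR and voom called 0 members and DESeq2 1 (Tdo2, higher), and limma called 0.0331% of all genes. The estimate was above 0 for 40 of 42 members, so that most differences were less negative or more positive with obesogenic dams. Among all genes 48.6% of estimates were below 0. The median member was at 0.27, and without CO.1 it was 0.06. The members with the smallest p were Tdo2 (0.90, SE 0.27), Amdhd1 (0.59, SE 0.22) and Etnppl (1.74, SE 0.67), each with a limma adjusted p of 0.936. At an unadjusted p under 0.05 there were 5 members (4.56% of all genes). The smaller count in OO against OC than in CO against CC is thus not shown to be a difference between the dams' diets.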

How the data were processed

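Liver RNA was sequenced from TruSeq libraries, per the labels' protocols. What the authors deposited is a signal. Its steps show gene counts, each divided by a factor of its library. In each library 95.7% to 97.3% of values were a whole number of such steps (tolerance 0.01), and these numbers gave the recovered reads. Bowtie 1.2.3 and mm8 were used, per the submitters' processing notes. No source used here gives the counter, annotation, strand setting or scaling. The labels list 12 samples and the table holds 11 columns whose names give the group only, so 1 CO sample was not analysed here. The design assumed CPM, and its log-scale test was kept. Symbols were found for 11965 of 12086 identifiers.

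Limma 3.58.1 (R 4.3.3) fitted log2(value + 0.5) with an intensity trend and 1 mean per group over 11 libraries (7 residual and 4.66 prior degrees of freedom), with Benjamini-Hochberg adjustment over 12086 genes and a threshold of 0.05. Genes needed a value of 1 in 3 libraries, which all met. The fit was tested on simulated data. A floor of 3 reads lay between 0.1 and 0.829 per library, for counting error only. All 42 members are given. Where 0 passed, the 3 with the smallest p are named, and of each branch at least the 2 with the smallest p for the offspring diet average have values in every library. Members and lists were chosen with earlier results of these data known. Alternatives were edgeR 4.0.16, DESeq2 1.42.0 and voom on recovered reads rounded to whole numbers, other pseudocounts, filters and scalings, only the 2 groups compared, and fits without single libraries or without 2 pairs of libraries.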

Additional observations from a re-analysis of the deposited data

How the results depend on the processing

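Alternatives were followed for the members called in a comparison or, where none was, for the 3 with the smallest p, and 0 of these estimates reversed; other members were not followed one by one. Members called in CO against CC numbered 4 by edgeR, 4 by voom, 1 without OC.0 and CO.1, 0 without OC.1 and CO.1, and 0 to 8 when single libraries were left out, against 7 in the report. For OO against OC the count was 1 without OC.0 and CO.1, 1 without OC.1 and CO.1, and 0 to 1 without single libraries. For the offspring diet average it was 1 without OC.0 and CO.1, 3 without OC.1 and CO.1, and 6 to 10 without single libraries. For the interaction DESeq2 called 1. The median member in CO against CC ran from -0.59 to -0.11 without single libraries, and the median interaction was 0.0344 without OC.0 and CO.1. Of 161 refitted values of the 7 members called in CO against CC, 106 stayed past the threshold and 55 did not, and for the 10 members of the average these were 178 and 42 of 220. Causes of these changes were not tested, except that leaving out libraries leaves fewer samples. Fits without CO.0 or CO.1 have a lone CO library, assumed to vary like the others. No paired analysis was possible because the labels give no pairs or litters, and the number in a column name is tied to no labelled sample. Depth limited Sdsl most, at 22 reads in its lowest library, and groups of 2 or 3 libraries limit every interval given.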
